A study of Mus musculus with 12 samples.

Results

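The genes described are 8 genes of vascular mural cells and smooth muscle: Myh11, Acta2, Tagln, Abcc9, Pdgfrb, Rgs5, Vtn and Notch3. They were taken by gene symbol from the deposited count table, and from the RPKM table through the same Ensembl identifiers. They are 8 of 41388 genes listed, and all 8 were among the 17441 genes whose counts were high enough to be tested. Adult C57Bl/6 mice gave cortical poly(A) RNA for 12 sequenced libraries, 3 in each of 4 groups. KI is the Knock-in line labelled Grin1-exon5+/+, in which exon 5 of Grin1 is constitutive, and KI_WT is its wild type. KO is the Knock-out line labelled Grin1-exon5-/-, and KO_WT is its wild type. The labels name no promoter, Cre or founder clone, and they give no sex. The numbers in the library titles differ, so each library was taken as 1 mouse, and the 4 groups share the strain background.

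Mural cells wrap the endothelial tube of brain vessels: smooth muscle cells encircle arterioles and venules, and pericytes lie along capillaries within the vascular basement membrane. Smooth muscle contracts through a smooth-muscle myosin and actin apparatus, and pericytes are recruited when endothelial PDGF-B binds the receptor PDGFRB on their surface. Notch3 signalling from neighbouring endothelium helps keep arteriolar smooth muscle differentiated, and a potassium channel that senses ATP sets mural cell tone. In RNA from whole tissue, fewer mural cells and less of an RNA per mural cell cannot be told apart.

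The libraries held 31790970 to 36514024 counts assigned to genes. Grin1, the targeted gene, averaged 311 ± 20.8 CPM in KI, 319 ± 18.3 in KI_WT, 307 ± 35.7 in KO and 333 ± 27.6 in KO_WT (SD, n = 3 each). A total over the gene does not check the presence of exon 5, a short cassette. All 12 cortical neuron markers were detected, with a summed level of 1282 to 1865 CPM per library. Markers of neighbouring regions were uneven: 3 libraries (KI_WT 3, KO 1, KO_WT 3) were highest in olfactory bulb markers and 3 (KI_WT 3, KO_WT 1, KO_WT 3) lowest in choroid plexus markers. Xist, transcribed from the inactive X chromosome, was between 570.3 and 856 CPM for 5 libraries, KI 2 and 3, KO 1 and 2, and KI_WT 1, with Y-linked genes near 0, and at 0.611 CPM or less in all other libraries. All 3 KO_WT libraries were low in Xist, so Xist status was unequal between KO and KO_WT.

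The 5 members with an entry in the RefSeq promoter table (GRCm38.p6) are Acta2, Abcc9, Rgs5, Vtn and Notch3. Each was read from 250 bases before to 25 bases after the annotated start. Shown are Acta2, which carries both motifs searched, and Abcc9 and Rgs5, whose levels had Pearson's r of 0.71 across the 12 libraries. Capitals mark the CArG box, the site of serum response factor in smooth muscle genes, and the RBPJ core of Notch signalling, searched as TGGGAA on both strands (a match on the other strand reads TTCCCA). The CArG box was searched with up to 1 G or C among its 6 central bases, a form that reads the same on both strands.
Acta2 promoter, chr19:34255349-34255623, minus strand: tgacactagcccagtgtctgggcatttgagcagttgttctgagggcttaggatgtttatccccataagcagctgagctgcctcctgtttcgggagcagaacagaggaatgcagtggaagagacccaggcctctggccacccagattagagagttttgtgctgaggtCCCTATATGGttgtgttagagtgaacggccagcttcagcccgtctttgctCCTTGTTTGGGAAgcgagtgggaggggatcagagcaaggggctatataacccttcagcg
Abcc9 promoter, chr6:142702250-142702524, minus strand: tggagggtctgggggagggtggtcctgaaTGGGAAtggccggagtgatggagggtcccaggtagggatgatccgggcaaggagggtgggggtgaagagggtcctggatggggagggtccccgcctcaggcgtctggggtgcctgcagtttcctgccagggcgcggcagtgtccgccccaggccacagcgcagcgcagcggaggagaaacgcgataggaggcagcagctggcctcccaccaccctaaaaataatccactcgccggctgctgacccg
Rgs5 promoter, chr1:169655251-169655525, plus strand: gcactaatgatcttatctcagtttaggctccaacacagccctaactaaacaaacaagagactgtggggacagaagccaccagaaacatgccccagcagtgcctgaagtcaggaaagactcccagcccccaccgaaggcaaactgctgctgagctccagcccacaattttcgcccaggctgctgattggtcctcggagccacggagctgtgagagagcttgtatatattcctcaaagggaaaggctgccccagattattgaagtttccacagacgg
Acta2 held 2 CArG boxes of this form, beginning 84 and 34 bases before the start. Its RBPJ core, beginning 27 bases before the start, shared 3 bases with the nearer CArG box. Abcc9 held 1 RBPJ core, 221 bases before the start, and no CArG box, and Rgs5 held neither. Vtn held 2 RBPJ cores and no CArG box, and Notch3 held neither motif. Among the first listed promoters of 27025 genes over the same window, 9.4% held the CArG box in this form and 23.4% the RBPJ core. With no G or C allowed in the centre, 1.48% held a CArG box and none of the 5 members did. These matches describe the letters alone.

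Per unit of gene length the 8 genes spanned a wide range. Rgs5, a regulator that speeds the shut-off of G-protein signalling, was highest at 36.8 ± 3.99 RPKM (mean ± SD over 12 libraries). Vtn, the matrix glycoprotein vitronectin, followed at 29.6 ± 5.49 RPKM, and the ranges of these genes overlapped (29.1 to 42.2 RPKM for Rgs5 and 23.7 to 41.1 RPKM for Vtn). Acta2, smooth muscle alpha-actin, stood at 6.77 ± 1.53 RPKM and Tagln, the actin-binding protein transgelin, at 5.38 ± 1.22 RPKM. Pdgfrb stood at 3.55 ± 0.466 RPKM. Myh11, the smooth muscle myosin heavy chain, stood at 1.78 ± 0.376 RPKM. Abcc9, the sulfonylurea-receptor subunit of the mural potassium channel, stood at 1.35 ± 0.214 RPKM, and Notch3 was lowest at 1.18 ± 0.220 RPKM. The ranges of Vtn and Acta2 did not overlap, nor did those of Pdgfrb and Myh11, whereas the ranges of every other pair of neighbours in this order did. Between libraries of a group the members varied by 11.9% (Pdgfrb) to 20.7% (Tagln) on the CPM scale, above the 1.33% to 5.88% that counting alone gives at their mean counts. Comparisons between groups below use counts scaled by library size and TMM (CPM), which do not correct for gene length.

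**Figure D1:**
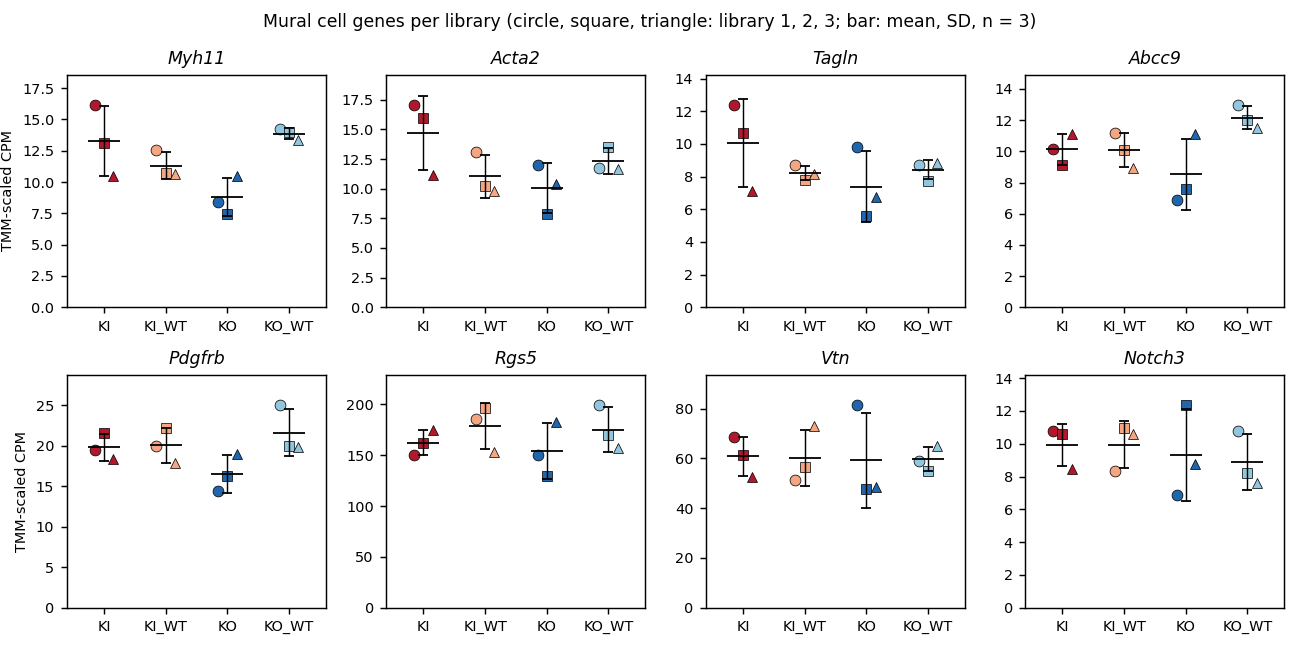
TMM-scaled CPM of each of the 8 genes (vertical axes from 0) in the 3 libraries of KI, KI_WT, KO and KO_WT (horizontal axis), with the group mean and SD. Myh11, Abcc9 and Pdgfrb sit lower in all KO libraries than in any KO_WT library, and Acta2 and Tagln are highest in KI 1 and KI 2.

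Among the contractile genes, Myh11 was the one whose KO libraries all lay below those of KO_WT. Myh11 (ENSMUSG00000018830) lies at chr16:14194535-14291372, minus strand (GRCm38), and was measured at 8.41, 7.48 and 10.4 CPM in KO, against 14.2, 13.97 and 13.4 CPM in KO_WT. It was measured at 16.2, 13.2 and 10.5 CPM in KI, against 12.5, 10.7 and 10.6 CPM in KI_WT. KO 2 was the lowest of the 12 libraries and KI 1 the highest. The KO over KO_WT log2 fold change was -0.66 (95% interval -1.01 to -0.31), with an unadjusted p of 0.00136 and an adjusted p of 0.678 over all genes tested (edgeR quasi-likelihood test). The difference exceeded the spread between replicates for this gene taken alone and did not pass the threshold over all genes. The KI over KI_WT value was 0.23 (95% interval -0.11 to 0.58) and its groups overlapped. It was 0.080 without KI 1 and 0.39 without KI 3.

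Acta2 had its highest levels in KI 1 and KI 2. Acta2 (ENSMUSG00000035783) lies at chr19:34241090-34255590, minus strand, and was measured at 17.1, 15.9 and 11.2 CPM in KI, against 13.1, 10.2 and 9.80 CPM in KI_WT. KI 3 lay inside the KI_WT range. The KI over KI_WT log2 fold change was 0.42 (95% interval 0.011 to 0.82; unadjusted p 0.0450, adjusted p 0.715 by edgeR). Levels were 11.97, 7.84 and 10.4 CPM in KO, against 11.8, 13.6 and 11.6 CPM in KO_WT. The KO over KO_WT value was -0.29 (95% interval -0.70 to 0.11) and was -0.14 without KO 2 and -0.44 without KO 1.

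Tagln had its highest and lowest levels in the same libraries as Acta2. Tagln (ENSMUSG00000032085) lies at chr9:45929619-45936058, minus strand, and was measured at 12.4, 10.7 and 7.12 CPM in KI, against 8.70, 7.79 and 8.18 CPM in KI_WT. It was measured at 9.81, 5.59 and 6.77 CPM in KO, against 8.73, 7.75 and 8.82 CPM in KO_WT. KI 1 was highest and KO 2 lowest, as for Acta2 and Myh11, and the groups overlapped in both comparisons. The log2 fold changes were 0.29 for KI over KI_WT (95% interval -0.18 to 0.76) and -0.19 for KO over KO_WT (95% interval -0.66 to 0.28). The KI over KI_WT value was 0.13 without KI 1 and 0.50 without KI 3. The KO over KO_WT value was -0.022 without KO 2, -0.13 without KO 3 and -0.45 without KO 1. Tagln is the member whose count is least certain: 108 bases of its exons overlap exons of Pcsk7 on the opposite strand, a gene at 18.4 CPM, and the strand setting of the counting was not given in the sources used here. The antisense gene Gm48529, which overlaps 62.4% of its exonic bases in GENCODE, was not analysed here.

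Abcc9 and Pdgfrb, a channel subunit and a growth factor receptor, were also lower in every KO library than in any KO_WT library. Abcc9 (ENSMUSG00000030249) lies at chr6:142587862-142702315, minus strand, and was measured at 6.88, 7.57 and 11.1 CPM in KO, against 12.98, 11.99 and 11.5 CPM in KO_WT. KO 1 and KO 2 were the lowest of the 12 libraries and KO 3 lay just under the KO_WT range. The log2 fold change was -0.51 (95% interval -0.87 to -0.15; unadjusted p 0.00921, adjusted p 0.678 by edgeR). In KI it was measured at 10.1, 9.10 and 11.1 CPM, against 11.2, 10.1 and 8.96 CPM in KI_WT. These ranges overlapped, and the KI over KI_WT value was 0.0061 (95% interval -0.35 to 0.37).

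Pdgfrb (ENSMUSG00000024620) lies at chr18:61045150-61085061, plus strand. It was measured at 14.3, 16.2 and 18.9 CPM in KO, against 24.98, 19.98 and 19.8 CPM in KO_WT. KO 1 was again lowest, and KO_WT 1 stood above all other libraries. The log2 fold change was -0.39 (95% interval -0.67 to -0.11; unadjusted p 0.0109, adjusted p 0.678 by edgeR), and -0.27 without KO_WT 1. Levels were 19.4, 21.6 and 18.3 CPM in KI, against 19.98, 22.2 and 17.9 CPM in KI_WT. The KI over KI_WT value was -0.017 (95% interval -0.30 to 0.26), and the groups overlapped.

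Notch3, the receptor whose mutations cause the small-vessel disease CADASIL in humans, showed no common order of the groups. Notch3 (ENSMUSG00000038146) lies at chr17:32120820-32166852, minus strand, and was measured at 6.85, 12.4 and 8.76 CPM in KO, against 10.8, 8.20 and 7.61 CPM in KO_WT. The KO libraries held both the lowest (KO 1) and the highest (KO 2) of the 12 values. Levels were 10.8, 10.6 and 8.44 CPM in KI, against 8.31, 10.97 and 10.6 CPM in KI_WT. The log2 fold changes were 0.070 for KO over KO_WT (95% interval -0.39 to 0.53) and -0.0042 for KI over KI_WT (95% interval -0.46 to 0.45). Its exons share 488 bases with the antisense gene Gm17276, which was at 1.32 CPM.

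The members with the highest levels, Rgs5 and Vtn, overlapped between groups in both lines. Rgs5 (ENSMUSG00000026678) lies at chr1:169655501-169695813, plus strand, and was measured at 150.2, 129 and 183 CPM in KO, against 199, 170.0 and 157 CPM in KO_WT. In KI it was measured at 149.7, 162 and 174 CPM, against 186, 197 and 153 CPM in KI_WT. KO 2 was lowest and KO_WT 1 highest, and the groups overlapped in both comparisons. The log2 fold changes were -0.19 for KO over KO_WT (95% interval -0.48 to 0.11) and -0.14 for KI over KI_WT (95% interval -0.44 to 0.16). The KO over KO_WT value was -0.070 without KO 2, -0.081 without KO_WT 1 and -0.32 without KO 3. The KI over KI_WT value was -0.075 without KI 1, -0.064 without KI_WT 2 and -0.23 without KI_WT 3.

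Vtn (ENSMUSG00000017344) lies at chr11:78499091-78502324, plus strand. It was measured at 81.3, 47.5 and 48.6 CPM in KO, against 59.1, 55.1 and 64.8 CPM in KO_WT. KO 1 was the highest of the 12 libraries and KO 2 the lowest, so that the KO range enclosed all others. Levels were 68.5, 61.2 and 52.5 CPM in KI, against 51.4, 56.3 and 72.97 CPM in KI_WT. The log2 fold changes were -0.013 for KO over KO_WT (95% interval -0.44 to 0.42) and 0.012 for KI over KI_WT (95% interval -0.42 to 0.44).

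Across the 8 genes, KO stood lower than KO_WT for 7, with a median log2 fold change of -0.24, against 0.0076 over all genes tested, of which 48% were below 0. No member passed the adjusted threshold of 0.05 in edgeR, in DESeq2 or in limma on RPKM, against 0.00573% of all genes in edgeR. At an unadjusted p under 0.05 in edgeR, 3 of the 8 were lower (Myh11, Abcc9, Pdgfrb), against 3.79% of all genes lower. The same 3 had KO libraries that all lay below the KO_WT libraries, against 6.4% of all genes. An exact permutation test of 3 against 3 libraries, two-sided, cannot go below p = 0.1, which these 3 genes reached. DESeq2 gave Myh11 an adjusted p of 0.244, and over all alternatives run its adjusted p ranged over 0.137 to 0.997. Without KI_WT 3, KO 1 and KO_WT 3, the libraries highest in olfactory bulb markers, the median over the 8 was -0.38.

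KO 1 and KO 2 were high in Xist whereas KO 3 and all KO_WT libraries were low. Each of the 8 members had its lowest level of the 12 libraries in KO 2 (5 members) or KO 1 (3 members). KO 1 also held the highest level of Vtn, and KO 2 that of Notch3. Among the Xist-low libraries alone (KO 3 against 3 KO_WT), the log2 ratio was -0.41 for Myh11, -0.13 for Abcc9 and -0.19 for Pdgfrb. With a term for Y-linked expression in the edgeR model, added over all 12 libraries, the log2 fold changes were -0.54, -0.44 and -0.34 in the same order of genes, with adjusted p of 0.997 for each. The animal numbers in the library titles also formed 2 separate ranges. Within the lower range (KO 1 against KO_WT 2 and 3) Myh11 had a log2 ratio of -0.70, Abcc9 of -0.77 and Pdgfrb of -0.47. Within the higher range (KO 2 and 3 against KO_WT 1) the ratios were -0.67 for Myh11, -0.48 for Abcc9 and -0.51 for Pdgfrb. Tagln and Vtn had opposite signs in these ranges (0.24 and 0.44 in the first, -0.50 and -0.30 in the second). For Myh11, Abcc9 and Pdgfrb every KO library lay below every KO_WT library. Their ratios in any such subset could therefore only be negative, and only their size is informative.

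**Figure D2:**
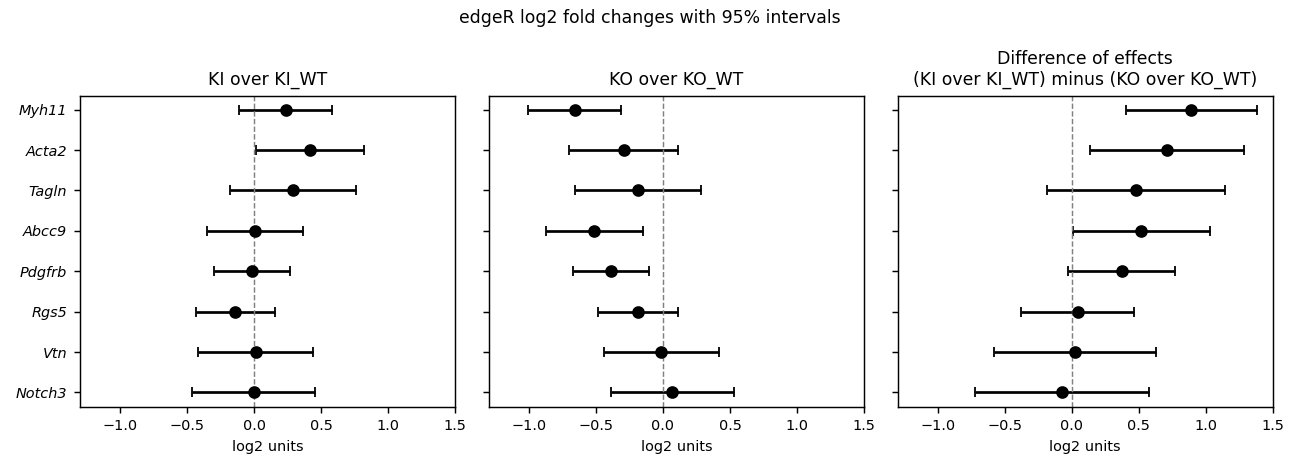
Log2 fold changes of the 8 genes with 95% intervals from edgeR, for KI over KI_WT, KO over KO_WT and the difference between these effects. In KO over KO_WT the intervals of Myh11, Abcc9 and Pdgfrb lie below 0, and in the difference those of Myh11, Acta2 and Abcc9 lie above 0; none passed the threshold adjusted over all genes.

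KI against KI_WT gave no common direction: 5 of the 8 members had a higher mean, against 48.7% of all genes, and 3 a lower one, with a median log2 fold change of 0.0090, against -0.0054 over all genes tested. No member passed the adjusted threshold in edgeR, DESeq2 or limma, against 0% of all genes in edgeR, and 1 of the 8 (Acta2) had an unadjusted p under 0.05 in edgeR, against 3.04% of all genes higher. In no member did the libraries of the groups separate, against 12.2% of all genes. The contractile genes Acta2, Tagln and Myh11 had the largest positive values, at 0.42, 0.29 and 0.23, and KI 1 held the highest of the 12 levels of each. Among Xist-low libraries (KI 1 against KI_WT 2 and 3) the log2 ratios were 0.77, 0.63 and 0.60 for Acta2, Tagln and Myh11. Among Xist-high libraries (KI 2 and 3 against KI_WT 1) they were 0.050, 0.033 and -0.084. Without KI 3 the median over the 8 was 0.11, and without KI_WT 3 it was 0.11.

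**Figure D3:**
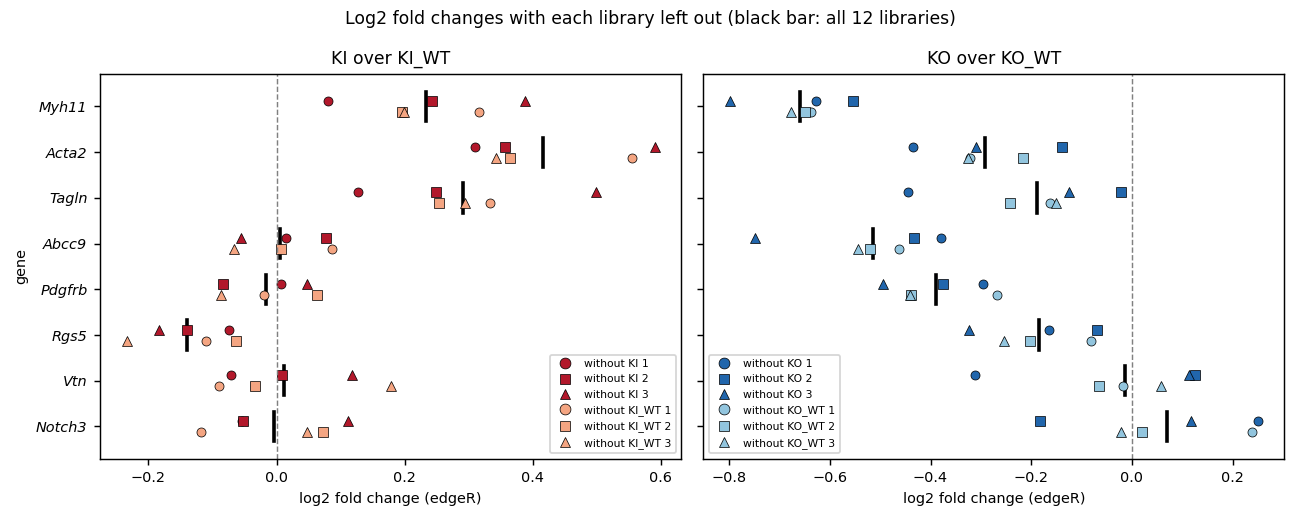
Log2 fold change (horizontal axis) of each gene with all 12 libraries (black bar) and with each library of KI or KI_WT (left) and of KO or KO_WT (right) left out. Myh11, Acta2, Tagln, Abcc9, Pdgfrb and Rgs5 stay below 0 in KO over KO_WT in every case, whereas Vtn and Notch3 cross 0. For Myh11, Abcc9 and Pdgfrb this follows from KO libraries that all lie below the KO_WT libraries.

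Set directly against each other, KI had the higher mean for all 8 members, against 50.7% of all genes, and the median of their log2 fold changes was 0.26 against 0.0026 over all genes. This median was 0.39 without KO 3. Myh11 had the largest value, 0.60 (95% interval 0.25 to 0.94; unadjusted p 0.00275, adjusted p 0.877 by edgeR), and its KI libraries all lay above its KO libraries, which held for 1 of the 8 members against 4.23% of all genes. Acta2 followed at 0.55 (unadjusted p 0.0120), and Myh11 and Acta2 were the 2 of 8 with an unadjusted p under 0.05, against 1.82% of all genes higher. None passed the adjusted threshold in edgeR, DESeq2 or limma, against 0.00573% of all genes in edgeR. These lines have separate wild types, so the genotypes and the lines cannot be told apart here.

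Between the wild types, Myh11 and Abcc9 also separated, and no member passed a test. KI_WT was lower than KO_WT for Myh11, at -0.30 (95% interval -0.64 to 0.048), and for Abcc9, at -0.27 (95% interval -0.63 to 0.088), and for these 2 of 8 members the libraries did not overlap, against 3.83% of all genes. None of the 8 had an unadjusted p under 0.05 in edgeR, against 1.96% of all genes in either direction, and none passed the adjusted threshold in edgeR, DESeq2 or limma, against 0% in edgeR. The median over the 8 was -0.072, and its sign was not stable: it was 0.0035 without KO_WT 1, and 0.031 without KI_WT 3, KO_WT 1 and KO_WT 3, the libraries lowest in choroid plexus markers.

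The difference between the effects, KI over KI_WT minus KO over KO_WT, was largest for Myh11, at 0.89 log2 units (95% interval 0.40 to 1.38; unadjusted p 0.00181, adjusted p 0.918 by edgeR). By unadjusted p it ranked 18 of the 17441 genes. Acta2 had 0.71 (95% interval 0.14 to 1.28) and Abcc9 0.52 (95% interval 0.0095 to 1.03). These 3 of 8 had an unadjusted p under 0.05, against 2.05% of all genes higher, and none passed the adjusted threshold in edgeR, DESeq2 or limma, against 0.00573% of all genes in edgeR. With the Y-linked term, the difference was 0.82 for Myh11, 0.71 for Acta2 and 0.49 for Abcc9. Rgs5, Vtn and Notch3 had differences of 0.046, 0.025 and -0.074, and each of their 95% intervals included 0.

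Across the 12 libraries the members did not vary as a single block. Acta2 and Tagln were the closest pair, with Pearson's r of 0.87 and Spearman's rho of 0.71 on log2(CPM + 1), and a permutation p of 0.0146 for r, two-sided and adjusted over 28 pairs. Myh11 had r of 0.78 with Acta2 and 0.64 with Tagln, the latter with an adjusted permutation p of 0.0735. A separate trio was formed by Abcc9, Pdgfrb and Rgs5, with r of 0.77, 0.72 and 0.71, and Myh11 also had r of 0.72 with Abcc9 and 0.71 with Pdgfrb. Acta2 and Tagln had r between 0.0066 and 0.33 with the trio. Vtn had r of 0.69 with Tagln and negative values with Abcc9, Pdgfrb and Rgs5, and Notch3 had no r above 0.35. On deviations from the group means, r of Myh11 fell to 0.41 with Abcc9 and 0.38 with Pdgfrb. There r was 0.56 for Abcc9 with Pdgfrb, 0.68 for Pdgfrb with Rgs5, 0.73 for Abcc9 with Rgs5 and 0.82 for Acta2 with Tagln.

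By r, 8 of the 28 pairs had an adjusted permutation p under 0.05, and by rho none did, with a lowest adjusted p of 0.0851. The 8 pairs had rho of 0.62 to 0.78. Some of these relations rest on few libraries. Without KI 1 and KO 2, the libraries farthest from the Acta2 median, r between Acta2 and Tagln was 0.65. With the same libraries left out, r of Myh11 was 0.50 with Acta2 and 0.14 with Tagln. Without KO 1 and KO 2, r of Abcc9 was 0.37 with Pdgfrb and 0.51 with Rgs5. Other pairs changed little: without KI 1 and KO 2, r of Myh11 was 0.75 with Abcc9 and 0.79 with Pdgfrb. Without KO 1 and KO_WT 1, r between Pdgfrb and Rgs5 was 0.68. With the 2 farthest libraries left out, which leaves 10 for each pair, 0 of the 28 pairs had an adjusted permutation p under 0.05. On deviations from the group means 4 did, but permuting them freely ignores the 4 means taken out, so these p-values run too small. In the 9 libraries of the higher number range, 4 of the 28 pairs did. Within those 9 libraries r was 0.94 for Acta2 and Tagln and 0.66 for Abcc9 and Pdgfrb; the other range holds 3 libraries, too few for a value.

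**Figure D4:**
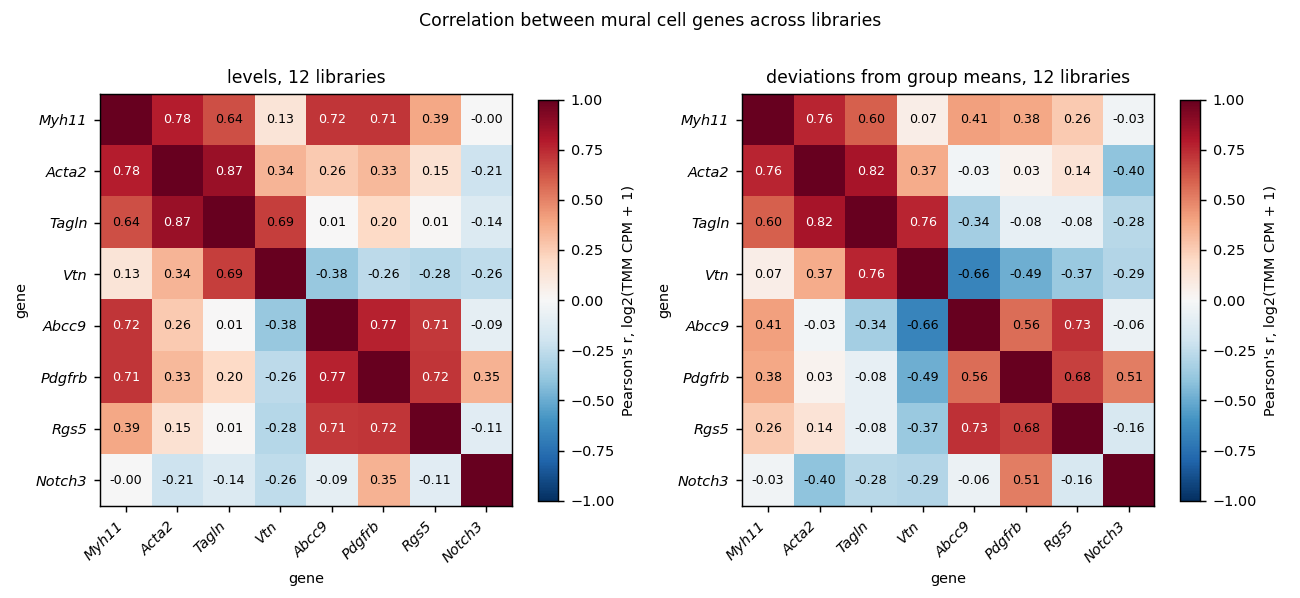
Pearson's r between each pair of genes across 12 libraries, on levels (left) and on deviations from the group means (right). Acta2 with Tagln has the highest value in both panels and Acta2 with Myh11 the next, and Tagln with Vtn follows on deviations.

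The genes whose levels ran most nearly parallel to each member were sought among 14602 genes with a mean of at least 1 CPM, by Pearson's r over the 12 libraries. For Acta2 they were Rhot2 (0.92), Tagln (0.87) and Pop5 (0.86), and for Tagln they were Acta2, Rhot2 (0.87) and Hn1 (0.85). For Pdgfrb they were Clec14a (0.92), Tpcn1 (0.91) and Flt1 (0.91), of which Clec14a and Flt1 are endothelial genes. For Vtn they were Crabp1 (0.96), Pnrc1 (0.96) and Slc6a13 (0.96), the last a transporter of meningeal fibroblasts. For Myh11 they were Chd8 (0.92), 2010300C02Rik (0.91) and Fam20b (0.90). Abcc9 was nearest to Marf1 (0.98), Shroom4 (0.97) and Nwd1 (0.97), and Rgs5 to Mgll (0.97), Cdk2ap1 (0.96) and Myom3 (0.96). Notch3 was nearest to Rnf31 (0.91), Polrmt (0.91) and AI837181 (0.90). Each value is among the 3 highest found in a search and describes these libraries, which share region and Xist differences.

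Of 20 further pericyte genes, 18 stood lower in KO than in KO_WT, with a median log2 fold change of -0.10, against 0.0076 over all genes. None passed the adjusted threshold. Slc38a11, a solute carrier of pericytes, averaged 1.77 ± 0.646 CPM in KO and 2.74 ± 0.394 CPM in KO_WT (log2 fold change -0.63). Cspg4, the NG2 proteoglycan of pericytes and oligodendrocyte precursors, averaged 9.84 ± 1.34 CPM in KO and 12.2 ± 0.209 CPM in KO_WT (log2 fold change -0.31). Kcnj8 and Ednra, also members of lists below, are among these 20. The summed level of the 20 was 373 to 522 CPM in KO and 399.7 to 513 CPM in KO_WT, so the sums overlapped. Ptn alone, at a mean of 339 CPM over the libraries, made up most of these sums. With each gene weighted equally, the mean deviation of log2(CPM + 1) from the mean of the 12 libraries was -0.18 to -0.0047 in KO. It was 0.012 to 0.056 in KO_WT, without overlap. The same measure also separated for astrocyte genes (-0.12 to 0.026 in KO, 0.067 to 0.097 in KO_WT). It did so for microglia and perivascular macrophage genes as well (-0.14 to 0.040 in KO, 0.087 to 0.16 in KO_WT). In KI, 14 of the 20 pericyte genes stood higher than in KI_WT (median 0.041), and the 2 with the smallest p were lower. Pde5a, a cyclic GMP phosphodiesterase, averaged 12.3 ± 0.953 CPM in KI and 16.3 ± 1.89 CPM in KI_WT (log2 fold change -0.41). Art3 averaged 2.95 ± 0.553 CPM in KI and 4.30 ± 0.621 CPM in KI_WT (log2 fold change -0.54).

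The smooth muscle list did not share the order seen for Myh11 in the knockout line. Of 23 tested genes, 12 were higher and 11 lower in KO than in KO_WT (median 0.066), and none passed the adjusted threshold. Their mean levels ran from 0.433 CPM (Cnn1) to 193 CPM (Tpm1), and which cells gave these RNAs was not tested. Sncg, gamma-synuclein, averaged 4.46 ± 1.84 CPM in KO and 2.05 ± 0.0636 CPM in KO_WT (log2 fold change 1.12). Vcl, vinculin, which many brain cells make, averaged 40.9 ± 6.42 CPM in KO and 47.7 ± 2.497 CPM in KO_WT (log2 fold change -0.22). In KI, 21 of the 23 were higher than in KI_WT (median 0.12) and none passed. Synpo2, an actin-bundling protein also present in neurons, averaged 22.2 ± 6.83 CPM in KI and 7.72 ± 1.24 CPM in KI_WT (log2 fold change 1.52), and Sncg 4.08 ± 1.51 CPM in KI and 2.77 ± 0.796 CPM in KI_WT (log2 fold change 0.56). Actg2 and Myocd, the smooth muscle co-activator of serum response factor, had at most 5 and 10 counts in a library and were not tested.

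The partners of the receptors and the channel were measured as well, and none passed the adjusted threshold in either line. Kcnj8, which encodes the pore that pairs with the Abcc9 subunit, averaged 2.96 ± 0.448 CPM in KO and 3.69 ± 0.414 CPM in KO_WT (log2 fold change -0.31). Abcc8, the neuronal sulfonylurea receptor, averaged 14.8 ± 4.26 CPM in KO and 18.6 ± 2.06 CPM in KO_WT (log2 fold change -0.32), and all 3 channel genes beside Abcc9 stood lower in KO. In the PDGF pathway 4 of 10 genes were lower and 6 higher in KO (median 0.024). Pdgfra, the receptor of oligodendrocyte precursors and fibroblasts, averaged 65.7 ± 13.8 CPM in KO and 87.1 ± 7.68 CPM in KO_WT (log2 fold change -0.41). Ptpn11, the phosphatase SHP2 that binds the activated receptor, averaged 225 ± 30.6 CPM in KO and 267 ± 15.4 CPM in KO_WT (log2 fold change -0.25). In the Notch pathway 12 of 17 genes were higher in KO (median 0.11). Notch2 averaged 26.04 ± 0.603 CPM in KO and 29.8 ± 2.57 CPM in KO_WT (log2 fold change -0.19), and the Notch target Hes1 averaged 8.43 ± 1.01 CPM in KO and 6.98 ± 0.306 CPM in KO_WT (log2 fold change 0.27). In KI, 10 of these 17 Notch genes and 7 of the 10 PDGF genes were higher than in KI_WT, and the 3 channel genes were lower. Notch2 averaged 27.3 ± 1.30 CPM in KI and 31.9 ± 3.36 CPM in KI_WT (log2 fold change -0.22) there, and Pdgfra 83.9 ± 4.33 CPM in KI and 71.6 ± 12.2 CPM in KI_WT (log2 fold change 0.23).

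Genes of the matrix in which mural cells lie, and of signals exchanged with endothelium, had mostly lower means in KO, and none passed the adjusted threshold. Of 19 basement membrane and vitronectin receptor genes, 14 were lower in KO (median -0.16). Itga1, a collagen-binding integrin of mural cells, averaged 7.63 ± 1.90 CPM in KO and 11.96 ± 1.58 CPM in KO_WT (log2 fold change -0.65), and Lama2, a laminin chain of the mural basement membrane, averaged 14.9 ± 3.02 CPM in KO and 18.4 ± 0.864 CPM in KO_WT (log2 fold change -0.30). In KI 11 of the 19 were higher (median 0.049), and Itgav, the alpha chain of vitronectin receptors, averaged 111 ± 8.52 CPM in KI and 143 ± 23.1 CPM in KI_WT (log2 fold change -0.36). Of 16 genes of TGF-beta, sphingosine-1-phosphate, angiopoietin and endothelin signalling, 12 were lower in KO (median -0.18). The 2 with the smallest p were higher: Angpt1, the mural ligand of the endothelial receptor Tek, averaged 12.1 ± 1.89 CPM in KO and 8.95 ± 1.14 CPM in KO_WT (log2 fold change 0.43), and S1pr3 averaged 11.2 ± 2.09 CPM in KO and 8.36 ± 0.650 CPM in KO_WT (log2 fold change 0.42). In KI 9 of these 16 were higher (median 0.024).

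Markers of other cell types of the vessel wall differed beside the members in some comparisons. Of 20 endothelial genes, 16 were lower in KO (median -0.16), and their summed level was 629.7 to 786 CPM in KO and 797 to 848 CPM in KO_WT, without overlap. Such separation was not particular to the vessel wall. Sums of microglia and perivascular macrophage genes were 381 to 408 CPM in KO and 427 to 482 CPM in KO_WT. Sums of astrocyte genes were 5230 to 7427 CPM in KO and 7598 to 8220 CPM in KO_WT. Flt1, a receptor for VEGF, averaged 61.7 ± 9.12 CPM in KO and 82.2 ± 6.98 CPM in KO_WT (log2 fold change -0.41), and Abcb1a, a drug efflux pump of the blood-brain barrier, averaged 52.6 ± 11.01 CPM in KO and 69.6 ± 5.08 CPM in KO_WT (log2 fold change -0.40). Fibroblast genes of the meninges and perivascular space were higher in KO for 11 of 15 (median 0.15), with sums of 257 to 390.4 CPM in KO and 268 to 329 CPM in KO_WT. Pdgfra is on this list too, and Tek is on both the endothelial and the signalling list. Dcn, the proteoglycan decorin, averaged 37.1 ± 12.9 CPM in KO and 25.5 ± 6.79 CPM in KO_WT (log2 fold change 0.54). None of these genes passed the adjusted threshold, and none of the markers tested was at 0. In KI, 12 of the 20 endothelial genes and 11 of the 15 fibroblast genes were higher than in KI_WT, with sums of 752 to 817 CPM in KI and 761 to 859 CPM in KI_WT for endothelium. The part of these cell types, of region markers and of Xist status in the values of the 8 members was not tested beyond the comparisons given.

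**Figure D5:**
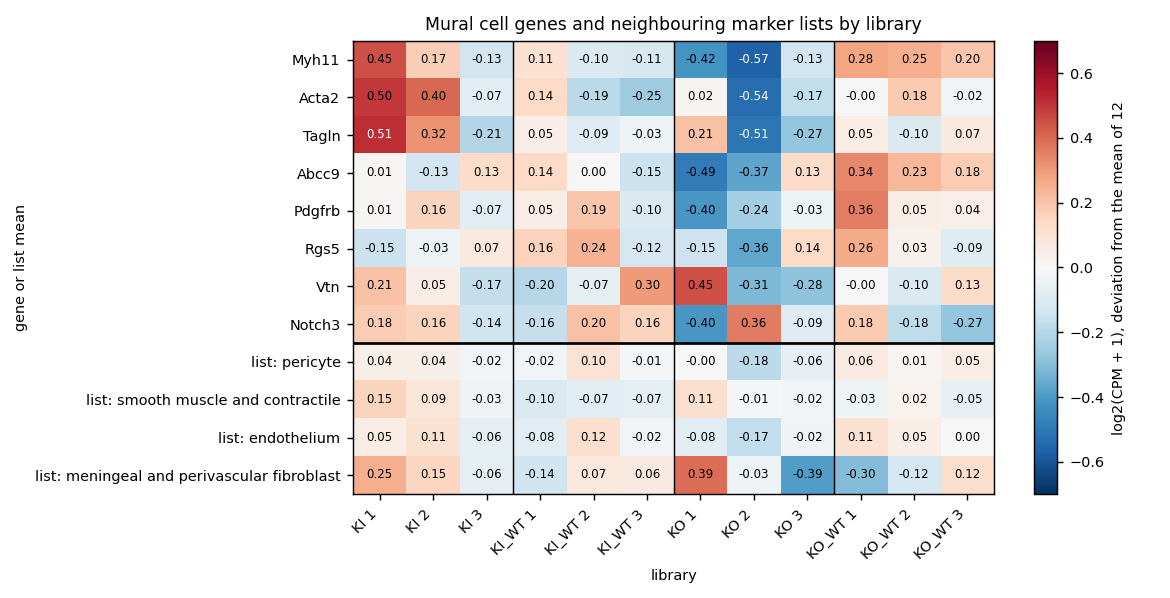
Deviation of log2(CPM + 1) from the mean of the 12 libraries for each of the 8 genes (upper rows) and for the mean of 4 marker lists (lower rows), by library in the order KI, KI_WT, KO, KO_WT. KO 2 is below the mean in 7 of the 8 members (all but Notch3) and in all 4 lists, and KI 1 is high in Myh11, Acta2 and Tagln. The KO 2 values are -0.18 for pericyte, -0.17 for endothelium, -0.034 for fibroblast and -0.0092 for smooth muscle genes.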

How the data were processed

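Poly(A) RNA from mouse cortex was measured in 12 libraries, each from 1 mouse by its title number. Per the submitters' processing notes the authors used bcl2fastq 2.17, STAR 2.5.0c, Cufflinks 2.2.1 (its role not given) and build GRCm38. The counting tool, annotation and strand setting are not given in the sources used here. The deposited tables hold raw counts per gene and, in a second table, RPKM values made by the authors. Dividing counts by RPKM gave 1 length per gene for each member, within 0.0851%, so both tables rest on the same reads.

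Counts were normalised by TMM and tested in edgeR 4.0.16 by the quasi-likelihood test (R 4.3.3), with 1 mean for each of 4 groups, all 12 libraries sharing 1 estimate of spread. Genes were kept by filterByExpr (17441 of 41388), and p-values were adjusted by Benjamini-Hochberg over all of them, with a threshold of 0.05. Libraries held 31790970 to 36514024 counts. Members had 187 to 6626 counts per library. Alternatives were RLE size factors, other count filters, terms for title number range and Y-linked expression, only the groups compared, each library left out, DESeq2 1.42.0, and limma 3.58.1 on log2(RPKM + 0.1) and on log2(RPKM + 1), keeping genes that exceeded 0.5 RPKM in 3 or more libraries. The fit was tested on simulated counts. Correlations used 100000 permutations, on log2(CPM + 1). Promoters came from a RefSeq table (GRCm38.p6) and gene positions from GENCODE on GRCm38.

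All members and lists were chosen with earlier results of these data known. Genes named from a list are among the 2 with the smallest p, since none passed, and Actg2 and Myocd were named as not tested. Same-group libraries were taken as separate mice, and the spread covers animals and dissection together.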

Additional observations from a re-analysis of the deposited data

How the results depend on the processing

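Of 720 recomputed values of single genes, 649 kept their direction and their side of the threshold, 71 had the opposite sign and none passed the threshold. The opposite signs fell in 18 of 40 results, each with a size of at most 0.17 log2 units. The lower Myh11, Abcc9 and Pdgfrb of KO over KO_WT kept their sign under every alternative run, at -0.80 to -0.38, -0.75 to -0.27 and -0.50 to -0.26. Every KO library of these genes lay below every KO_WT library, so leaving out libraries could hardly change that sign. Acta2, Tagln and Rgs5 also kept their sign there, at -0.47 to -0.14, -0.45 to -0.022 and -0.32 to -0.070. The lowest adjusted p of any member was 0.125, for Abcc9 without KO 3. The median over the 8 genes ranged with 1 library left out over 0.011 to 0.11 (KI over KI_WT), -0.35 to -0.16 (KO over KO_WT), 0.26 to 0.39 (KI over KO), -0.10 to 0.0035 (KI_WT over KO_WT) and 0.34 to 0.48 (the difference). Without the 3 libraries highest in olfactory bulb markers it was 0.11 in KI over KI_WT and -0.38 in KO over KO_WT. Without the 3 lowest in choroid plexus markers it was 0.11 in KI over KI_WT, 0.031 in KI_WT over KO_WT and 0.27 in the difference, which was 0.30 with limma on log2(RPKM + 1). Pairs of members with an adjusted permutation p under 0.05 numbered 8, against 2 on RPKM, 0 without the 2 farthest libraries and 4 in the 9 libraries of the higher number range. On group deviations they numbered 4, by p-values that run too small. With no count filter the opposite signs were Notch3 0.0013 in KI over KI_WT. With a term for the title number range the opposite signs were Vtn 0.073 and Notch3 -0.12 in KO over KO_WT, Notch3 -0.060 in KI over KO, Acta2 0.0045, Tagln 0.15, Rgs5 -0.082 and Notch3 -0.18 in KI_WT over KO_WT, Vtn -0.061 and Notch3 0.12 in the difference of effects. With the Y-linked term the opposite signs were Pdgfrb 0.014 and Notch3 0.048 in KI over KI_WT, Vtn 0.045 in KO over KO_WT, Vtn -0.0034 in the difference of effects. With the 3 libraries highest in olfactory bulb markers left out the opposite signs were Abcc9 -0.069 and Notch3 0.045 in KI over KI_WT, Notch3 -0.079 in KI over KO, Tagln 0.0079 and Vtn -0.077 in KI_WT over KO_WT. With the 3 libraries lowest in choroid plexus markers left out the opposite signs were Abcc9 -0.069 and Notch3 0.044 in KI over KI_WT, Vtn 0.11 in KO over KO_WT, Tagln 0.10, Pdgfrb 0.086 and Vtn -0.024 in KI_WT over KO_WT, Rgs5 -0.10 in the difference of effects. With limma on log2(RPKM + 0.1) the opposite signs were Pdgfrb 0.035 and Notch3 0.046 in KI over KI_WT. With limma on log2(RPKM + 1) the opposite signs were Pdgfrb 0.029 and Notch3 0.027 in KI over KI_WT. With 1 library left out, the values that crossed 0 ranged as follows: in KI over KI_WT Pdgfrb -0.086 to 0.063, Vtn -0.090 to 0.18, Abcc9 -0.067 to 0.086, Notch3 -0.12 to 0.11; in KO over KO_WT Vtn -0.31 to 0.12, Notch3 -0.18 to 0.25; in KI over KO Vtn -0.090 to 0.35, Notch3 -0.079 to 0.35, Rgs5 -0.033 to 0.22; in KI_WT over KO_WT Tagln -0.086 to 0.0065, Rgs5 -0.049 to 0.14, Vtn -0.14 to 0.13, Pdgfrb -0.19 to 0.015; in the difference of effects Vtn -0.10 to 0.33, Notch3 -0.25 to 0.19, Rgs5 -0.062 to 0.19. The cause of these shifts was not tested. No paired analysis was possible because the replicate numbers follow accession order and the labels pair no libraries across groups. Leaving out libraries by region markers and restricting the correlations to the higher number range were chosen after seeing the data. Tagln, Myh11, Notch3 and Abcc9 rested on as few as 187, 250, 250 and 251 counts in a library. At their mean counts over the 12 libraries, counting alone gives 5.88%, 5.01%, 5.58% and 5.39% in the same order, and more at the lowest counts.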

Other observations

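Other cell types and neighbouring regions were measured beside the mural cell genes, and none of their markers passed the adjusted threshold in KO over KO_WT or KI over KI_WT (edgeR). Of 10 microglia and perivascular macrophage genes, 9 were lower in KO (median -0.17) and 9 higher in KI (median 0.18). Csf1r, the receptor that maintains microglia, averaged 88.3 ± 5.85 CPM in KO and 109.9 ± 11.4 CPM in KO_WT (log2 fold change -0.32), and Mrc1, a marker of perivascular macrophages, averaged 6.55 ± 2.15 CPM in KO and 9.50 ± 1.28 CPM in KO_WT (log2 fold change -0.54). Of 10 astrocyte genes, 7 were lower in KO (median -0.14), and Slc1a3, a glutamate transporter, averaged 703 ± 144 CPM in KO and 899 ± 70.2 CPM in KO_WT (log2 fold change -0.35). In KI 5 of these 10 were higher and 5 lower. Cortical neuron genes were lower for 9 of 12 in KO (median -0.16) and 10 of 12 in KI (median -0.094). The 5 blood genes tested were all lower in KO (median -0.36), and 4 of 5 were higher in KI (median 0.12).

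Region markers differed as well. All 10 choroid plexus genes were higher in KO (median 0.94) and 9 of 10 in KI (median 0.30). All 10 thalamus genes were higher in KO (median 0.51) and 9 of 10 in KI (median 1.02), with sums of 297 to 554 CPM in KO, 241 to 409.8 CPM in KO_WT, 375 to 518 CPM in KI and 259 to 362 CPM in KI_WT. Slc17a6, a glutamate transporter abundant in thalamus, averaged 81.4 ± 20.9 CPM in KO and 44.7 ± 10.5 CPM in KO_WT (log2 fold change 0.86). Olfactory bulb genes were lower for 8 of 10 in KI (median -1.53) and for 5 of 10 in KO (median -0.053). Their summed level was 386 CPM in KI_WT 3, against 34.6 and 39.5 CPM in KI_WT 1 and KI_WT 2. It was 55.2, 104 and 61.3 CPM in KI 1, KI 2 and KI 3, above KI_WT 1 and KI_WT 2 and below KI_WT 3. The part of these markers in the values of the mural cell genes was not tested beyond leaving out the libraries that stood apart.

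Over 12 libraries, 16 relations between members and the endothelium and fibroblast lists were computed, chosen after seeing the data. The endothelium list holds Flt1 and the fibroblast list Slc6a13, which the search above had found nearest to Pdgfrb and Vtn. The adjustment over 16 does not cover that search. Pdgfrb and the endothelium list had Pearson's r of 0.80 and rho of 0.78, with permutation p of 0.0307 and 0.0608 adjusted over the 16. Without the 2 libraries farthest from the median of the list, KI_WT 2 and KO 2, r was 0.75. Vtn and the fibroblast list had r of 0.76 and rho of 0.73, with adjusted permutation p of 0.0368 and 0.0748. Without KO 1 and KO 3, r was 0.54. The lowest adjusted permutation p for rho missed 0.05, so both relations are given as values.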
